A study of Mus musculus with 2 samples.

Results

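Selenoproteins are the proteins that carry selenocysteine, the amino acid that binds selenium in place of the sulfur of cysteine. The 9 genes described here (Selenop, Selenow, Selenof, Selenok, Selenos, Selenot, Selenoh, Msrb1 and Sephs2) were taken by symbol from the 31053 genes that each library lists, and all 9 were found in both. The study profiled immune cells of mouse pancreatic islets, the clusters of hormone-secreting cells that include the insulin-producing β cells, and its title concerns an antioxidant program of the macrophages that live there. Each of the 2 libraries was a pool of islets from male C57BL/6J mice on chow diet. Sorting kept live cells that carried the leukocyte protein CD45 and lacked the epithelial protein Epcam. A library labelled 1 week and a library labelled 12 weeks were analysed, without genotype or drug treatment in the labels used here. What the weeks count is not stated, ages are not given, and each time label had a single pool, so animals within a pool cannot be told apart.

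Selenocysteine is encoded by UGA, otherwise a stop codon, and is inserted only where a hairpin in the messenger's 3′ untranslated region recruits the insertion factors. Selenop is the secreted selenium carrier of plasma, made mostly by liver, and is taken up by receptors of the LDL receptor family. Most other members are small enzymes or enzyme-like proteins that handle thiols, oxidised methionine or hydrogen peroxide, several of them in the endoplasmic reticulum (ER). In macrophages Msrb1 is known to reduce oxidised methionine in actin, and Selenok to take part in calcium signalling.

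The codons that define these genes are shown because they separate Selenop, with 10 selenocysteine codons among 380, from the other members, which have 1 each. Sequences are coding DNA from GENCODE M21 (GRCm38, the assembly that mm10 names), 5′ to 3′, and capitals mark each selenocysteine codon.
Selenop, first of 10 (codon 59): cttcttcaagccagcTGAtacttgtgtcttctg
Selenop, last 5 of 10, ending with the stop codon taa: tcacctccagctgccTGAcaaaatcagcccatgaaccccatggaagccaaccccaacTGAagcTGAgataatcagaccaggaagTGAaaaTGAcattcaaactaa
Selenow (codon 13 of 88): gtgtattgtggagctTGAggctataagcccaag
Selenot (codon 49 of 195): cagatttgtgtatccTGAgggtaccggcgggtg
Selenof (codon 93 of 162): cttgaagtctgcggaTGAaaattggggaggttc
Selenoh (codon 38 of 123): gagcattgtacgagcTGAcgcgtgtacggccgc
Msrb1 (codon 95 of 116): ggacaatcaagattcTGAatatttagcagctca
Sephs2 (codon 63 of 452): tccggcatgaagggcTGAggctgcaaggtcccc
Selenok (codon 92 of 94): ccaatggctggtggaTGAggaaggtaa
Selenos (codon 189 of 190): ccatcatctggcggcTGAaactaa
In Selenok and Selenos the selenocysteine codon lies 2 codons and 1 codon from the end of the coding sequence, and in Selenop the last of its 10 leaves 3 codons after it. In Selenow, Selenot, Sephs2 and Selenoh the codon stands in the first part of the reading frame, with 75, 146, 389 and 85 codons after it. Selenop lies on chromosome 15 (3268547 to 3280508, + strand), Selenow on chromosome 7 (15917208 to 15922402, − strand) and Msrb1 on chromosome 17 (24736642 to 24742778, + strand). Selenok lies on chromosome 14 (29968308 to 29975662, + strand). The annotation holds 6 pseudogenes named after Selenok and 1 named after Selenot, so reads that fit a copy equally well may be missing from these 2 genes.

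The 1-week library held 1551 barcodes and 12858754 unique molecular identifiers (UMIs, which count captured transcript molecules), and the 12-week library 1867 barcodes and 12448628 UMIs, with 3 barcode sequences in common. After filtering, 1340 and 1752 cells were kept. Macrophages were the cells with at least 5 UMIs of the complement genes C1qa, C1qb and C1qc together and no marker call for another class, 1077 and 1428 cells. All 12 genes of the macrophage marker list had UMIs there, and the list summed to 41857 and 45004 UMIs per 1000000 UMIs (counts per 1000000, CPM). B cells (23 and 25), T cells (9 and 31) and dendritic cells (14 and 24) had under 5 C1q UMIs and at least 3 UMIs of their own markers. Another 166 and 192 cells passed both gates and were set aside, 136 and 163 of them by the dendritic list, and 91 and 107 cells had at least 3 UMIs of Siglech, a gene of that list. Islet hormone and Chga transcripts, which belong to endocrine cells, summed to 24057 CPM in 1-week and 1932 CPM in 12-week macrophages, and to 148724 and 1179 CPM in B cells. SDs are over the 2 libraries, which carry different time labels, and intervals cover counting error only.

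Selenop was the most abundant of the 9 genes in islet macrophages. Its level was 349 CPM in the 1-week and 371 CPM in the 12-week library (360 ± 15.6, SD, n = 2), and it supplied 25.4% and 25.9% of the UMIs of the 9 genes. Because the libraries count 3′ ends, a longer transcript does not by itself gain UMIs, and CPM are set side by side between genes. Selenok and Selenot may be undercounted through their pseudogene copies, which bears on their places in the order. Only 323 and 312 genes, of the 15754 and 15395 with a UMI in macrophages, stood above Selenop. Among 24 mouse selenoproteins it was the third highest at 1 week and the second at 12 weeks, after Txnrd1, the cytosolic thioredoxin reductase (652 and 976 CPM), and beside Gpx1, the cytosolic glutathione peroxidase (434 and 371 CPM). The Selenop and Gpx1 levels of the 12-week library, 371.26 and 371.16 CPM, could not be told apart.

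A group of 3 members followed. Selenok, a small ER membrane protein, stood at 242 and 252 CPM (247 ± 7.13, SD, n = 2). Selenow, a small thiol redox protein of the cytosol, stood at 210 and 235 CPM (222 ± 17.6). Msrb1, the methionine-R-sulfoxide reductase, stood at 181 and 245 CPM (213 ± 45.3). The ranges of Msrb1 over the libraries overlapped those of both Selenok and Selenow, while those of Selenok and Selenow did not overlap each other.

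Lower levels were found for the other 5. Selenof, the ER protein that binds the glycoprotein folding sensor UGGT1, stood at 161 and 131 CPM (146 ± 21.2, SD, n = 2). Selenos, which anchors the ATPase VCP at the ER membrane for the export of misfolded proteins, was at 107.03 and 107.27 CPM. Selenot, a thioredoxin-like ER protein, was at 59.6 and 51.8 CPM (55.7 ± 5.52). Selenoh, a redox protein of the nucleolus, was at 40.5 and 21.4 CPM (31.0 ± 13.5), and Sephs2, which makes the selenophosphate that all selenocysteine synthesis needs, at 21.3 and 15.7 CPM (18.5 ± 4.01). From Selenof down to Selenot the ranges did not overlap, while those of Selenoh and Sephs2 met, the lower Selenoh value being 21.4 CPM and the higher Sephs2 value 21.3 CPM. Of all 24 selenoproteins, 21 and 20 had a UMI in macrophages. Dio2 and Dio3, which act on thyroid hormone, and Selenov had 0 UMIs in both libraries, where 3 UMIs would be 0.337 and 0.309 CPM.

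**Figure D1:**
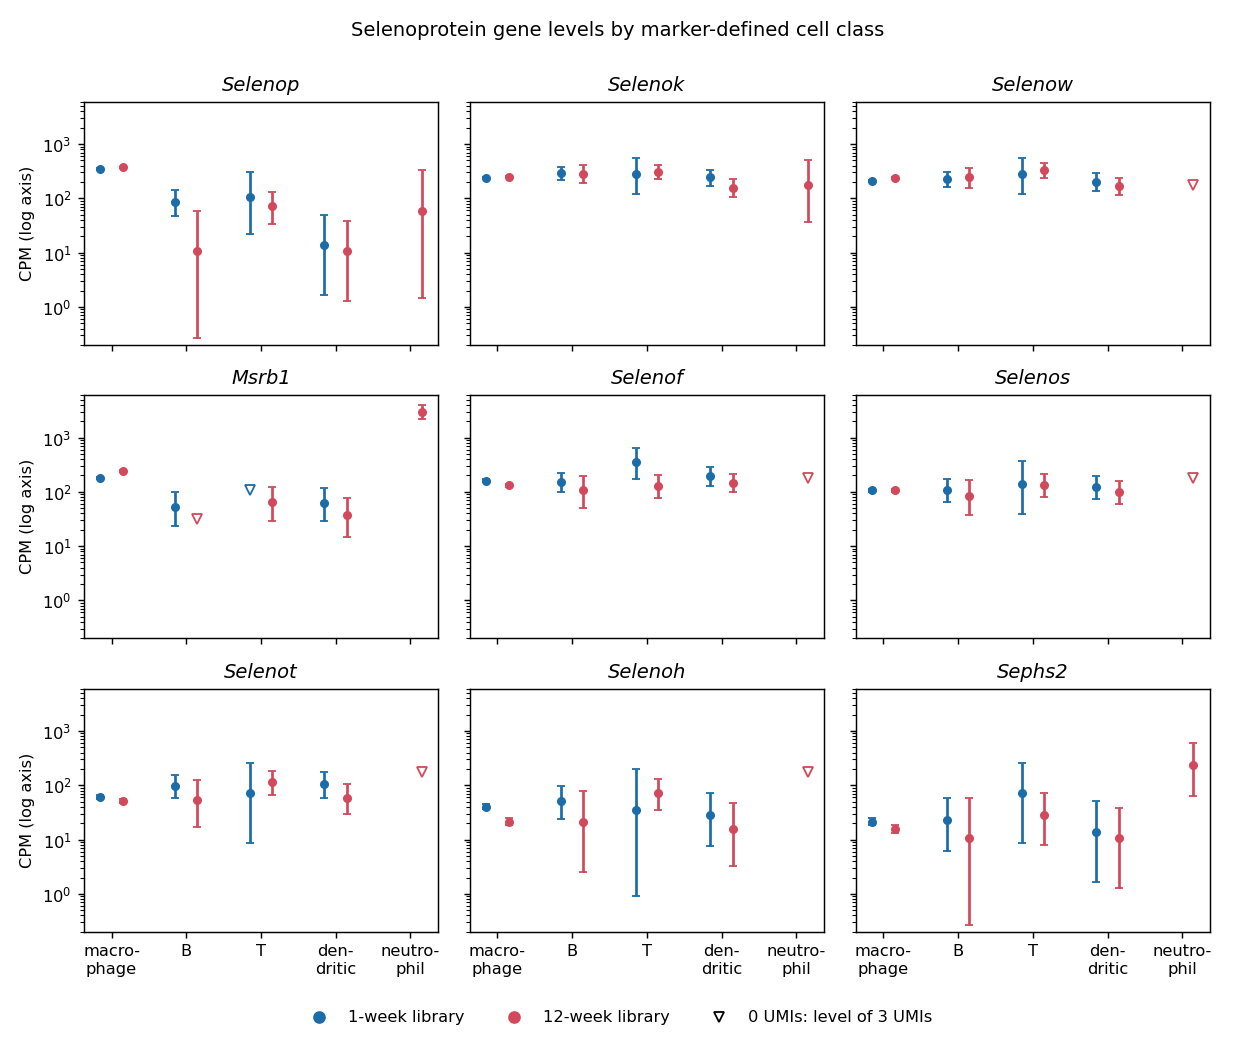
Level of each gene (CPM, log axis) in macrophages and in the B, T, dendritic and neutrophil classes of each library; points are summed counts with exact 95% Poisson intervals, open triangles mark 0 UMIs at the level of 3 UMIs, and the single 1-week neutrophil is not drawn. Selenop is highest in macrophages (349 and 371 CPM), Msrb1 in 12-week neutrophils (2996 CPM), and the intervals of the other members overlap between macrophages and B cells.

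Selenop and Msrb1 were higher in macrophages than in B and dendritic cells, and the other members tested did not pass the test. Neutrophils, which were not in the test, held more Msrb1 than macrophages, as described below. Selenop stood at 349 and 371 CPM in macrophages, 86.5 and 10.6 CPM in B cells and 13.9 and 10.6 CPM in dendritic cells, for the 1-week and 12-week libraries. The macrophage values lay above every value of the other classes. These low values rest on 15 and 1 UMIs in B cells and 2 and 2 in dendritic cells. Of the 15 in 1-week B cells, 13 came from a single cell, in which 25576 of 38130 UMIs were endocrine transcripts. Without it the B level was 14.8 CPM. The fitted difference between macrophages and the mean of B and dendritic cells was 3.92 on the log2 scale (SE 0.43, adjusted p = 0.000455). It was 5.11 when cells with over 10% endocrine UMIs were left out, and 3.15 and 4.68 in each library by itself.

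Msrb1 stood at 181 and 245 CPM in macrophages, 51.9 CPM and 0 UMIs in B cells and 62.6 and 37.0 CPM in dendritic cells. In the 12-week B cells 3 UMIs would have been 31.9 CPM. Both macrophage libraries again lay above all B and dendritic values. The difference was 2.55 on the log2 scale (SE 0.47, adjusted p = 0.00456), and 1.59 and 4.08 in each library by itself.

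These were 2 higher calls among 7 members with enough counts to test, in a comparison that called 24.9% of 2558 genes higher and 9.85% lower. Selenoh and Sephs2 did not pass the filter on low counts. Selenop and Msrb1 passed it through their macrophage sums, where they were high, so their entry into the test was not independent of its result. Both were also called with no filter on low counts. With so large a share of all genes called, the count of members called is near the background. The median difference of the 7 was 0.21, against 0.06 over all genes tested. Both calls were lost when the other classes were taken without the C1q limit, a setting that moves cells bearing macrophage transcripts into them (Selenop 0.92, adjusted p = 0.178, and Msrb1 0.80, adjusted p = 0.192).

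Selenow and the ER members did not pass the test. Selenok was 288 and 287 CPM in B cells and 243 and 158 CPM in dendritic cells, either side of the macrophage values, with a difference of 0.21 (SE 0.21, adjusted p = 0.471). Selenow was 225 and 244 CPM in B cells and 202 and 169 CPM in dendritic cells, a difference of 0.24 (SE 0.20, adjusted p = 0.361). Selenos differed by 0.17 (SE 0.24), Selenof by 0.12 (SE 0.21) and Selenot by -0.34 (SE 0.30), with adjusted p from 0.400 to 0.685. With both libraries pooled, the macrophage levels of these members lay inside the range of the B and dendritic values, except for Selenot. Selenot was lower in 12-week macrophages (51.8 CPM) than in any B or dendritic library, the lowest of which was 53.1 CPM. Within each library, Selenot was lower in macrophages than in B, T and dendritic cells. At 1 week the nearest class was T cells, at 70.7 CPM against 59.6 CPM in macrophages. Selenok and Selenos were also lower in macrophages than in these classes at 1 week, but not at 12 weeks. Apart from Selenot in 12-week T cells, the intervals of these lower macrophage levels overlapped those of the other classes. In the T cells, which were not in the test, Selenot stood at 70.7 and 114.6 CPM, the 12-week interval (65.5 to 186.1) lying above the macrophage interval (47.4 to 56.6). Selenof stood at 354 CPM (170 to 650) in 1-week T cells, above the macrophage value of 161 CPM, and at 129 CPM at 12 weeks. Selenoh, which was not tested, stood at 71.6 CPM (34.3 to 132, from 10 UMIs) in 12-week T cells. That interval lay above the macrophage interval (18.6 to 24.6). In 1-week T cells Selenoh had 1 UMI, or 35.4 CPM, against 40.5 CPM in macrophages.

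Among the genes that serve these members, few could be tested between classes. Of the 15 other selenoproteins 3 were tested and 2 were higher in macrophages, Txnrd1 by 2.57 (SE 0.24, adjusted p = 0.000248) and Gpx1 by 0.71 (SE 0.20, adjusted p = 0.0306). Of the 10 genes of selenocysteine synthesis and insertion 1 was tested and none called. Of the 10 ER partners 3 were tested and none called, Ube2j1, a ubiquitin-conjugating enzyme of the ER, being nearest at 0.71 (SE 0.27, adjusted p = 0.0779). None of the 3 Selenop receptors and none of 6 genes of methionine oxidation and repair had the counts for a test. In macrophages the receptors Lrp1 (52.4 and 48.5 CPM) and Lrp8 (10.2 and 13.3 CPM) were detected, and Lrp2 had 0 UMIs in both libraries.

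T cells fell under the 10 cells per library that the test required and are described only. They held 3 Selenop UMIs at 1 week (106 CPM, 95% interval 21.9 to 310.1) and 10 at 12 weeks (71.6 CPM, 34.3 to 132), spread over 2 and 7 cells with at most 3 in a cell. The 12-week interval lies below the macrophage level of 371 CPM. Apoe, a lipid carrier abundant in these macrophages, gives a measure of macrophage RNA in other droplets. Macrophages held 13.5 and 12.4 Selenop UMIs per 1000 Apoe UMIs, whereas T cells held 600 (93.2 to 3084) and 143 (65.6 to 279). The T cell ratios rest on 3 and 10 Selenop UMIs and 5 and 70 Apoe UMIs. In B cells the ratio was 161 (86.8 to 280) at 1 week, mostly from the cell rich in endocrine transcripts, and 7.09 (0.178 to 40.2) at 12 weeks. In dendritic cells it was 111 (12.5 to 464) and 24.1 (2.87 to 89.8). The part of free RNA in these levels was not tested.

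Neutrophils showed the highest Msrb1 level of any class. The 10 neutrophils of the 12-week library held 51 Msrb1 UMIs among 17025, or 2996 CPM (95% interval 2230 to 3939), against 245 CPM in macrophages of that library. Msrb1 was present in 9 of the 10 cells, with a median of 5 and a maximum of 10 UMIs per cell. The macrophage median was 1 UMI, although neutrophils had a median of 1736 and macrophages 6749 UMIs in all. No neutrophil held more than 1 C1q UMI, and the class held 587 CPM of Apoe. The only 1-week neutrophil held 4 Msrb1 UMIs among 1815. Selenow, Selenof, Selenos, Selenot and Selenoh had 0 UMIs in the 12-week neutrophils, where 3 UMIs would be 176 CPM, so lower levels were not detectable at this depth. Sephs2 had 4 UMIs there, in 4 of the 10 cells, or 235 CPM (64.0 to 602), against 15.7 CPM (13.3 to 18.4) in 12-week macrophages. The 1-week neutrophil held 1 Sephs2 UMI. With 10 cells from 1 pool, the Msrb1 and Sephs2 differences have no replicate check.

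Within macrophages, Selenop was spread over most cells rather than held by a few. To compare cells at equal depth, each macrophage with at least 3000 UMIs was thinned to 3000. This left 925 and 1340 cells and removed 152 and 88. Selenop was then found in 59.8% (56.5 to 63.0) and 63.4% (60.7 to 65.9) of macrophages. The mean was 1.08 and 1.14 UMIs per cell, and the highest cells held 9 and 8. Without thinning the shares were 77.9% and 81.7%. At the same 3000 UMIs, 1 of 21 and 1 of 16 B cells, 2 of 14 and 1 of 23 dendritic cells and 2 of 4 and 4 of 17 T cells held a Selenop UMI. The dendritic shares of 14.3% (1.78 to 42.8) and 4.35% (0.110 to 21.9) lay below the macrophage shares beyond counting error.

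The spread of Selenop between macrophages was wider than counting alone gives. The variance was 1.41 and 1.35 times the mean, where a Poisson count gives a ratio of 1, and a Poisson with the same mean would have put Selenop in 65.9% and 68.1% of cells. This was no extreme among genes, since 15.6% of 2925 and 17.1% of 2894 genes compared had a higher ratio. At the upper end, 15 and 26 macrophages held 5 or more Selenop UMIs (1.62% and 1.94%), and the top 10% of cells held 34.6% and 33.4% of all Selenop UMIs. Msrb1 was spread in a like way, with ratios of 1.41 and 1.31 and a UMI in 37.8% and 46.6% of macrophages. The other 7 members had ratios between 0.97 and 1.19. Their means were lower than that of Selenop, and a low mean holds the ratio near 1. Not all were lower than that of Msrb1. Selenok had means of 0.70 and 0.78 UMIs per cell, against 0.56 and 0.74 for Msrb1, with ratios of 1.03 and 1.11. In the 1-week library Selenow also had a higher mean than Msrb1 (0.64), with a ratio of 1.15. The separation was not fixed: with another thinning seed 1-week Selenoh had a ratio of 1.30, and at 5000 UMIs 12-week Selenok had 1.33, 12-week Selenos 1.33 and 1-week Sephs2 1.32, beside 1.73 and 1.67 for Selenop.

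**Figure D2:**
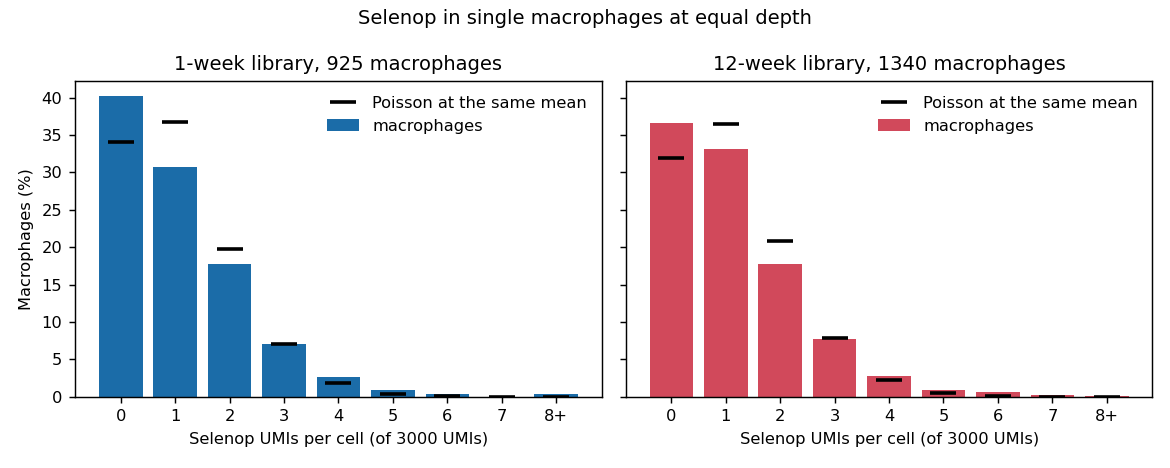
Share of macrophages (%) by their number of Selenop UMIs after thinning each cell to 3000 UMIs, for the 1-week (925 cells) and 12-week (1340 cells) libraries; black dashes give a Poisson count with the same mean. Cells with 0 Selenop UMIs (40.2% and 36.6%) exceed the Poisson share (34.1% and 31.9%), and so do cells with 5 or more.

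Selenop did not rise with the C1q transcripts among cells that held 5 or more C1q UMIs after thinning. The macrophage gate counted C1q before thinning, so cells with fewer in these bins may have passed it. The bins from 5 up also include cells that were set aside. After thinning, kept cells of any class with 0 C1q UMIs held a mean of 0.136 (95% interval 0.0624 to 0.259) and 0.141 (0.0643 to 0.267) Selenop UMIs. Between 0 and 5 C1q UMIs the cells were few. With 1 C1q UMI, 11 and 15 cells held 0.182 and 0.133, and with 2 to 4, 5 cells in each library held 0.200 (0.00506 to 1.11) and 1.20 (0.440 to 2.61). Cells with 5 to 9 C1q UMIs held 1.08 and 1.10, and those with 40 or more held 0.965 and 1.15. The intervals of cells with 0 and with 5 or more C1q UMIs did not overlap, and those of the bins from 5 up overlapped each other. Msrb1 in the 12-week library took another course, from 0.425 (0.248 to 0.680) at 5 to 9 C1q UMIs to 0.732 at 20 to 39 and 1.02 (0.890 to 1.17) at 40 or more. In the 1-week library Msrb1 stayed between 0.474 and 0.625 over the same range.

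**Figure D3:**
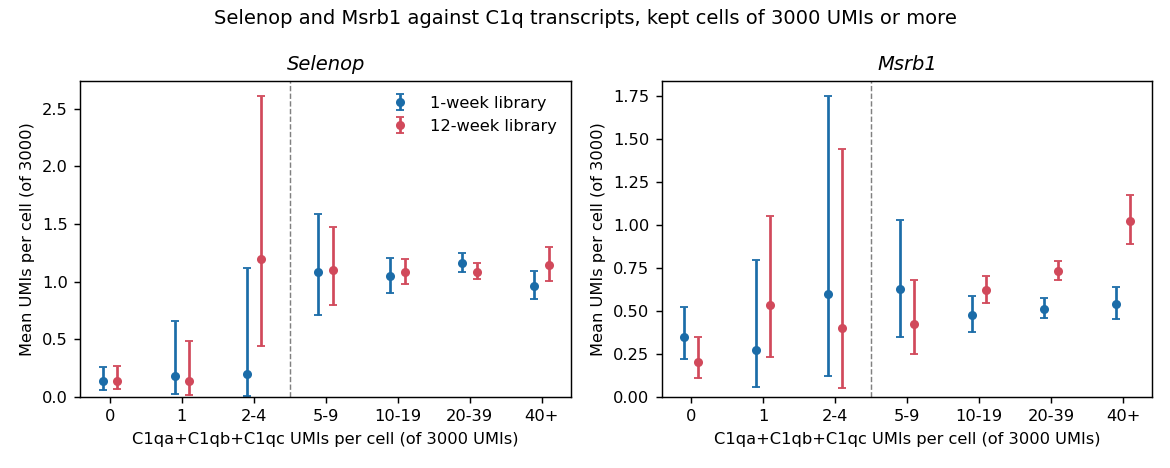
Mean Selenop (left) and Msrb1 (right) UMIs per cell against the summed C1q UMIs of the cell, after thinning kept cells of every class to 3000 UMIs. Bars are exact 95% Poisson intervals. The dashed line marks 5 C1q UMIs after thinning, whereas the macrophage gate of 5 UMIs was set before thinning. Selenop is near 0.14 at 0 C1q UMIs and between 0.965 and 1.16 from 5 up, the bin of 2 to 4 (5 cells per library) is at 0.200 and 1.20, and Msrb1 climbs with C1q at 12 weeks.

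The genes that most resembled Selenop across single macrophages were ranked by the weaker of the correlations in the libraries, over 925 and 1340 cells. Cells of a library share its depth and free RNA, and the coefficients are given as a description. Apoe, the lipid carrier, came first (r = 0.21 and 0.19), followed by the lysosomal proteases Ctss (0.15 and 0.11) and Ctsb (0.19 and 0.11), then Sh3bp5 (0.11 and 0.10) and the lipopolysaccharide co-receptor Cd14 (0.11 and 0.09). At the other end stood Rps2 (-0.12 and -0.13), Rplp0, Serf2, Rps26 and Tmsb10, of which Rps2, Rplp0 and Rps26 encode ribosomal proteins. All of these are weak. Among the 9 members themselves, the 36 pairs had coefficients between -0.06 and 0.07, so cells with more of 1 member did not visibly hold more of another at this depth.

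The members were then set against 6 sets of transcripts that vary between macrophages. For the interferon, heat shock, NRF2 and unfolded protein lists, macrophages at or above the 75th percentile of the list were compared with the rest of the same library. For the cell cycle and tissue-resident lists more than 75% of cells held 0 UMIs, so cells with at least 1 UMI (149 and 133, and 127 and 182) were compared with cells with none. In each comparison 4 sums were fitted with the library as a term, which leaves 1 residual degree of freedom. Such a high side is a range of a score and not a cell type. Selenop passed the test in none of the 6, by edgeR or DESeq2. Its lowest value was with the cell cycle (-0.32, SE 0.15, adjusted p = 0.453). Its largest difference toward the high side was with NRF2 targets, genes of the oxidant response such as Hmox1 and Srxn1. There Selenop stood at 383 against 338 CPM at 1 week and 387 against 367 CPM at 12 weeks (0.23 on the log2 scale, SE 0.09, adjusted p = 0.0842). No member passed in that comparison, in which 7.77% of 9357 genes were higher and 3.62% lower, although 3 members had an unadjusted p under 0.05. DESeq2 also called none of the 9 there. Selenoh came nearest, at 24.6 against 44.8 and 16.7 against 22.9 CPM (-0.59, SE 0.20, adjusted p = 0.0542), and it was called lower under some other settings. In the same comparison Txnrd1 rose by 0.93 (SE 0.08, adjusted p = 1.07e-09) and Gpx1 fell by 0.45 (SE 0.09, adjusted p = 0.000654). The Selenop receptor Lrp8 rose by 1.21 (SE 0.24, adjusted p = 0.000856), as 1 of 2 receptors tested, and the ATPase Vcp by 0.50 (SE 0.09, adjusted p = 0.000345), as 1 of 9 ER partners tested.

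Selenok and Selenos, both of the ER membrane, were higher in macrophages with more transcripts of the unfolded protein response, the program that raises ER chaperones. Selenok stood at 296 against 221 CPM at 1 week and 298 against 236 CPM at 12 weeks (0.37, SE 0.07, adjusted p = 7.6e-06). Selenos stood at 129 against 95.4 and 123 against 101 CPM (0.35, SE 0.09, adjusted p = 0.00449). Both genes were higher on the high side in both libraries. Selenof and Selenot, the other ER members, differed by 0.03 and 0.18 and did not pass. Of all 9329 genes tested 1.55% were higher and 0.847% lower. None of 9 ER partners tested passed. The calls for both genes were lost with DESeq2, without the library term, with the 90th percentile and with thinning to 2000 UMIs, with adjusted p up to 0.999995.

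Selenow was higher in macrophages with more interferon-response transcripts. It stood at 270 against 190 CPM at 1 week and 306 against 207 CPM at 12 weeks (0.59, SE 0.09, adjusted p = 3.63e-07). Both high sides lay above both low sides. Selenow was the only member called, where 4.34% of 9356 genes were higher and 0.823% lower. Txnrd1 also rose there, by 0.32 (SE 0.08, adjusted p = 0.00952). The Selenow call held with DESeq2 and was lost without the library term (adjusted p = 0.685).

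Selenoh was higher in macrophages with transcripts of the cell cycle, at 96.8 against 26.6 CPM at 1 week and 35.8 against 19.5 CPM at 12 weeks (1.33, SE 0.23, adjusted p = 0.000131). The high side of the 12-week library lay between both sides of the 1-week library. It was the only member called, beside 2.08% of 9433 genes higher and 0.445% lower. Cells of the high side held more UMIs at 1 week (median 9692 against 7415) and slightly more at 12 weeks (7337 against 6876), and the part of depth in this result was not tested. The call was lost with DESeq2 and without the library term (adjusted p = 0.702).

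In macrophages with more heat shock transcripts, Selenok was higher and Msrb1 lower. Selenok stood at 282 against 232 and 311 against 235 CPM (0.43, SE 0.11, adjusted p = 0.0147). Msrb1 stood at 142 against 196 and 162 against 273 CPM (-0.52, SE 0.11, adjusted p = 0.00599), with both high sides below both low sides. Of 9406 genes 7.58% were higher and 3.55% lower, so 1 member of 9 in each direction is near the background. Txnrd1 (0.36, adjusted p = 0.0243) and Ube2j1 (0.40, adjusted p = 0.0388) rose and Gpx1 fell by 0.33 (adjusted p = 0.0496). Both member calls were lost with DESeq2 and without the library term. With markers of tissue-resident stromal macrophages, the last list, no member was called by edgeR or DESeq2 and none had an unadjusted p under 0.05, where 0.306% of 9477 genes were higher and 0.232% lower.

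**Figure D4:**
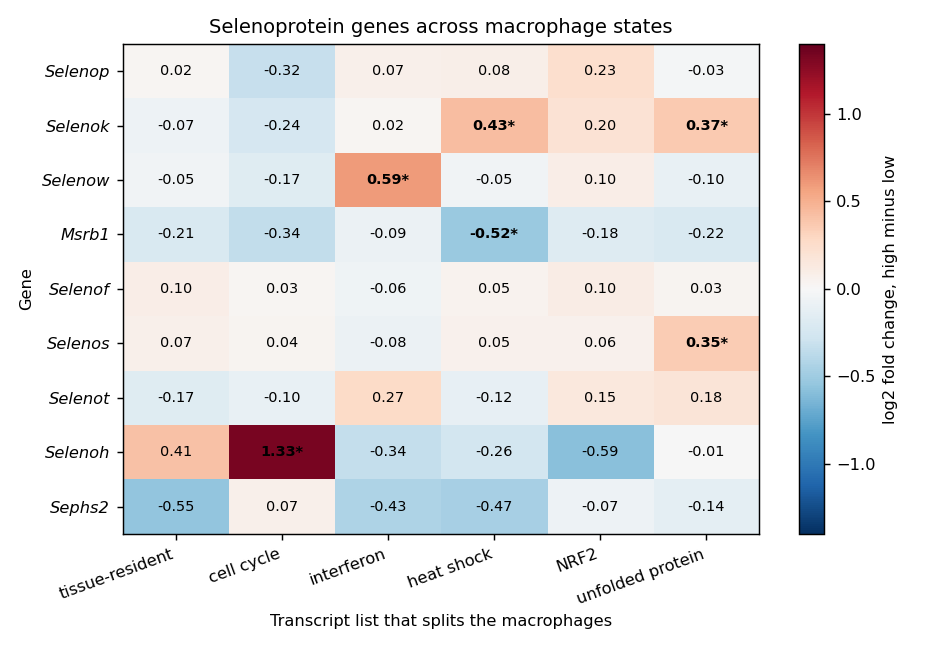
Log2 fold change of each gene between macrophages high and low for 6 transcript lists (columns), fitted over both libraries; asterisks and bold type mark an edgeR adjusted p under 0.05. Selenoh with the cell cycle (1.33) and Selenow with interferon (0.59) are the largest called values, and no Selenop value is marked.

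The time labels were compared without a test, since each had 1 library. Selenop was 1.06 times as high at 12 weeks as at 1 week (95% counting interval 1.01 to 1.12), and Selenok (1.04) and Selenos (1.00) had ratios whose intervals include 1. Msrb1 had the highest ratio, 1.35 (1.27 to 1.44), and Selenow followed at 1.12 (1.05 to 1.19). Selenof stood at 0.81 (0.75 to 0.88), Selenot at 0.87 (0.77 to 0.98) and Sephs2 at 0.73 (0.59 to 0.91). Selenoh, at 361 UMIs against 208, stood at 0.53 (0.44 to 0.63). It was the only member past a 1.5-fold difference, which 5.61% of 6183 genes passed upward and 6.55% downward. Cells with cell cycle transcripts, where Selenoh was higher, numbered 149 of 925 macrophages at 1 week and 133 of 1340 at 12 weeks, and Selenoh was also lower at 12 weeks on the low side of that list (19.5 against 26.6 CPM). The time label cannot be told apart from the pool of mice and the library.

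**Figure D5:**
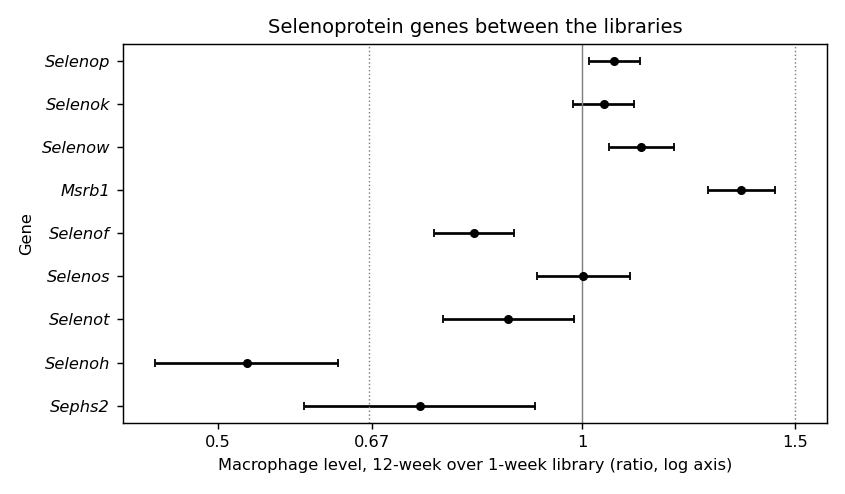
Ratio of the macrophage level in the 12-week library to that in the 1-week library for each gene (log axis) with 95% counting intervals; dotted lines mark a 1.5-fold difference. Msrb1 (1.35) is highest, and only Selenoh (0.53) lies past a dotted line.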

How the data were processed

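The authors deposited raw UMI counts per gene and barcode of 10x 3′ libraries. Per the submitters' processing notes they were made with Cell Ranger on mm10, and per the file headers with software version 3.1.0. The rule by which barcodes were called cells is not stated in these sources. Cells were kept from 500 genes and 1000 UMIs up, if mitochondrial UMIs were no more than 10%. Classes were gated on marker UMIs, with class sums at least 3 times those of other lists. No doublet caller was run, and cells that passed both a C1q and another gate were set aside.

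Counts were summed per library and class (or state side) and tested with edgeR 4.0.16 in R 4.3.3: quasi-likelihood tests after filterByExpr and TMM scaling, with a library term, and Benjamini-Hochberg adjustment over all genes tested at 0.05. The B, T and dendritic classes were planned for the comparison, but T cells were left out because the 1-week library had 9, under the minimum of 10. Residual degrees of freedom were 2 for classes and 1 for states. The p-values rest on how differences varied between these 2 pools and on the sharing of spread across genes in edgeR. With so few residual degrees of freedom, that sharing carries much of the weight. Genes used to gate or to form a state were not tested there. In simulated data the class comparison (2344 genes fitted) recovered 79.5% of 2-fold and 100.0% of 4-fold changes, and the NRF2 comparison (9355 genes) 86.0% and 100.0%. False calls numbered 4 and 6. The simulation gave every gene the same spread, no difference between libraries, and changes only in abundant genes. These rates therefore do not give the recovery to expect in the real data. Shares have exact Clopper-Pearson and levels exact Poisson 95% intervals, and a count of 0 is read as at most 3 counts.

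Named genes were the 9 members, list genes called in a comparison (at most 5 per list) and the 5 genes at each end of the correlation with Selenop (mean of at least 0.1 after thinning, same sign in both libraries). Other genes of the lists were named after their values were seen. The members and lists were chosen with earlier results of these data known. Alternatives included DESeq2 1.42.0, other gates and filters, and each library alone.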

Additional observations from a re-analysis of the deposited data

How the results depend on the processing

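In the class comparison Selenop and Msrb1 were called in 16 of 17 alternatives, with log2 differences of 0.92 to 5.91 and 0.80 to 3.12. Without the C1q limit on the other classes 0 members were higher. Over alternatives the count of all genes ran from 170 to 1455 higher (638 as reported) and from 118 to 397 lower (252). Leaving out T cells in turn was not run, as they were not in the fit. The alternatives chosen after seeing the data were T cells included from 5 cells per library, every cell with 5 or more C1q UMIs as a macrophage, endocrine transcripts left out, and cells with over 10% of them left out.

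State calls depended on the tool and the library term. Both DESeq2 and the fit without the library term gave 0 members higher for the cell cycle, heat shock and unfolded protein lists and 0 lower for heat shock. For interferon 0 were higher without the library term. The 90th percentile, which leaves the cell cycle and tissue-resident splits as they were, gave 2 lower for heat shock, 1 lower for NRF2 and 0 higher for the unfolded protein list. Thinning to 2000 UMIs gave 1 lower for NRF2 and 0 higher for the unfolded protein list, and no filter on low counts gave 1 lower for each. Over all genes, DESeq2 called 0, 54, 137, 252, 191 and 12 higher for the tissue-resident, cell cycle, interferon, heat shock, NRF2 and unfolded protein lists, where edgeR called 29, 196, 406, 713, 727 and 145, and without the library term the counts were 0, 2, 15, 0, 0 and 0. For genes lower DESeq2 called 0, 4, 6, 50, 24 and 1 against 22, 42, 77, 334, 339 and 79. The cause was not tested.

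Of 836 alternative values 18 were counted as changes of sign, all in fits over both libraries and with neither value past the threshold. Between classes these were Selenof -0.038 (stricter cell filter), Selenos -0.21 (Leiden clusters) and Selenot 0.10 (class sum of 5) and 0.011 (no filter). With no filter, Selenop was -0.038 for the tissue-resident list, and Selenof -0.0077 and Selenos -0.00012 for the cell cycle. Thinned to 2000, Selenos was -0.065 (tissue-resident), -0.20 (cell cycle) and -0.023 (heat shock), Sephs2 -0.15 (cell cycle) and Selenof -0.017 (unfolded protein). At the 90th percentile, heat shock gave Selenow 0.015, Selenof -0.12, Selenos -0.085 and Selenot 0.13, and NRF2 gave Selenow -0.027. DESeq2 gave Selenoh 0.0069 for the unfolded protein list. Values from a single library were left out of this count for members not called in the main fit. Some of those members took opposite directions in the libraries. Selenop with interferon, for example, stood at 365 against 343 CPM at 1 week and 361 against 376 CPM at 12 weeks.

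Depth set the share of macrophages with Selenop: 45.5% and 48.3% at 2000 UMIs, 75.5% and 76.2% at 5000, and 77.9% and 81.7% without thinning (1-week and 12-week). At 2000 UMIs the 12-week share was 0% in B cells and in dendritic cells, and it was 0% in 12-week dendritic cells with at most 1 C1q UMI, where 3 cells would be 15%, 12.5% and 14.3%. In 1-week B cells it rose from 4.76% to 8.70% at 2000 UMIs and to 15.8% with at most 1 C1q UMI. The variance of Selenop over its mean ran from 1.27 to 1.73 (1-week) and 1.26 to 1.67 (12-week) over the thinned alternatives, and was 4.03 and 2.22 without thinning. TMM scaling gave a Selenop time ratio of 1.12. It also changed which intervals include 1: Selenok became 1.10 (1.04 to 1.17) and Selenot 0.92 (0.81 to 1.04). No paired analysis was possible because each time label had a single library.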

Other observations

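A few sorted droplets were rich in endocrine transcripts and carried no immune class, 19 at 1 week and 4 at 12 weeks with at least 30% of their UMIs from hormone genes and Chga. Their levels depend on whether those transcripts are counted in the total. Without them, Selenok stood at 1280 CPM (95% counting interval 1124 to 1452) and 647 CPM (462 to 881), against 248 and 253 CPM in macrophages on the same scale. With all UMIs it stood at 413 CPM (363 to 469) and 309 CPM (220 to 420), against 242 and 252 CPM. Without endocrine transcripts Selenos stood at 513 and 453 CPM, Selenof at 561 and 275 CPM and Selenot at 254 and 194 CPM, and with all UMIs at 166 and 216, 181 and 131, and 82.0 and 92.6 CPM. Selenop was at 392 CPM (307 to 492) and 356 CPM (223 to 539) without endocrine transcripts, beside 358 and 372 CPM in macrophages. With all UMIs Selenop was at 126 CPM (99.2 to 159) and 170 CPM (106 to 257), below the macrophage values of 349 and 371 CPM. Apoe was at 79.4 and 469 CPM and Msrb1 at 31.7 and 32.3 CPM without endocrine transcripts.

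The 4 plasma cells of the 1-week library, which secrete antibody, held Selenok at 523 CPM (386 to 694) and Selenos at 273 CPM (176 to 402), with Selenop at 21.8 CPM from 2 UMIs. Endocrine transcripts made up 285197 CPM in those 4 cells, and their part in these levels was not tested. No difference here was tested, as the cells were few and each time label had 1 library.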
